A study of Zea mays with 18 samples.

Results

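The features described here are 4 maize gene models of the last steps of anthocyanin synthesis, out of 46430 features counted. They were chosen by ID. The selection rule names Zm00001d044122 as a1 (dihydroflavonol reductase), Zm00001d014914 as a2 (anthocyanidin synthase), Zm00001d045055 as bz1 (a glucosyltransferase) and Zm00001d034925 as a candidate anthocyanin acyltransferase. The count tables hold IDs alone, and the reference table used here pairs none of the 44146 Zm00001d IDs with a symbol, so these names come from the rule. For Zm00001d034925 the role could not be checked, and the feature is called by its ID. It was chosen because it had 0 counts in r1-m3 aleurone, so its values there are given as a description, with no test. The rule names the other 3 by their enzymes.

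Anthocyanins are the red to purple flavonoid pigments that colour the maize kernel, where they collect in the vacuoles of the aleurone, the outermost cell layer of the endosperm. Dihydroflavonol reductase turns dihydroflavonols into leucoanthocyanidins, anthocyanidin synthase oxidises these to the coloured anthocyanidins, and the glucosyltransferase adds the sugar that stabilises them. Acyltransferases can then attach acyl groups to the sugar. R1 encodes a transcription factor of the basic helix-loop-helix class that, together with the MYB factor C1, is known to switch on these structural genes in the aleurone.

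RNA was measured by sequencing in 18 libraries from endosperm at 19 days after pollination, from field-grown, self-pollinated plants of the inbred W22. Each of the genotypes r1-m3, R1-sc and R1-g has 3 libraries from the aleurone and 3 from the starchy endosperm, the storage tissue beneath it, which makes 6 groups. R1-g is the wild type by the submitters' design, and all 3 genotypes share the W22 background. The lesion or structure of the alleles is not described in the labels, which also do not say how many kernels or plants went into a library. The tissue was cut out by laser, and 5 ng of RNA was amplified before library construction.

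Feature totals ran from 12.5 to 20.4 M counts per library. A library with 0 counts of a feature can hold up to 3, which was 0.0912 to 0.167 CPM (counts scaled to library size, per M counts) in aleurone libraries and 0.223 to 0.347 CPM in starchy endosperm libraries. These floors cover counting error only, since the RNA was amplified and the labels describe no molecular identifiers. The third r1-m3 aleurone library looks, by its counts, like a mixture of the first 2 libraries: all 490 features with at least 200 counts in one of replicates 1 and 2 and 0 in the other had counts in it, and 0 features reached 200 counts in it alone. Its values are left out of group means below. The tests keep it and so count it as an independent replicate, which makes p-values that use r1-m3 aleurone too small to the extent that it is not, and those results are also given without it. It also enters the spread shared by all contrasts, and so the p-values of contrasts that do not use r1-m3 aleurone. No source used here pairs an ID with a marker of either compartment or with r1, so neither the dissection nor the genotype labels could be checked by gene.

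All 4 features were found in the aleurone of R1-sc and R1-g, had 0 counts in every r1-m3 library of either compartment, and were at or near 0 in the starchy endosperm. The plot of CPM by group shows every library.

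**Figure D1:**
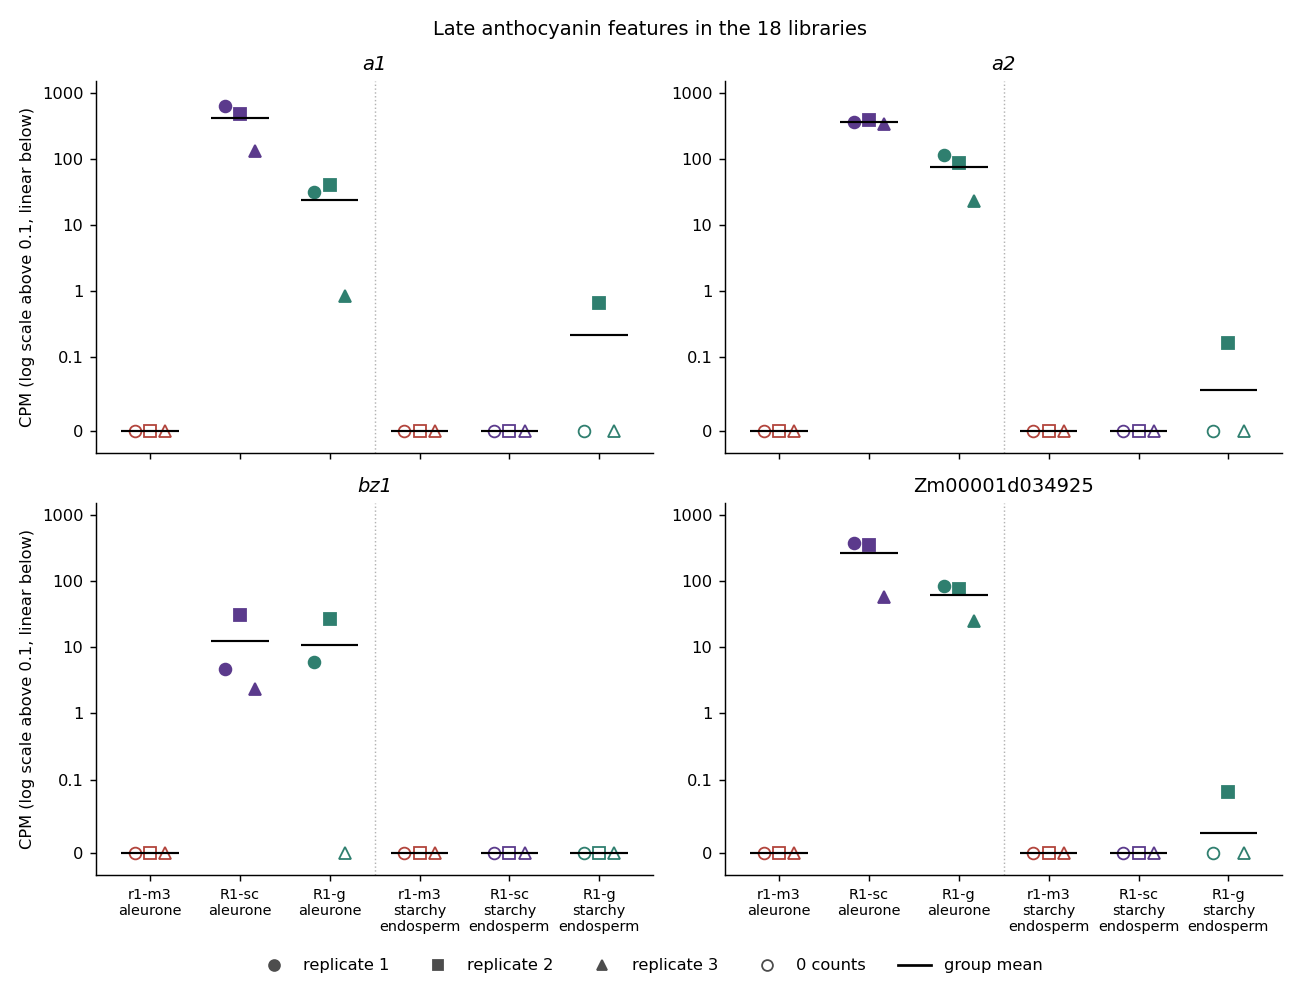
CPM of each feature in the 18 libraries, on a log scale above 0.1 CPM and linear below, by genotype and compartment. Symbols give the replicate, open symbols are libraries with 0 counts, and bars are group means (without replicate 3 in r1-m3 aleurone). The r1-m3 libraries all sit at 0, and in the aleurone the R1-sc libraries lie wholly above those of R1-g for a1 and a2 but overlap them for bz1 and Zm00001d034925.

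The a1 feature (Zm00001d044122), named for the reductase that opens this end of the pathway, had 0 counts in the 3 r1-m3 aleurone libraries. It had 628, 473 and 132 CPM in R1-sc aleurone replicates 1, 2 and 3. It had 31.6, 40.3 and 0.842 CPM in those of R1-g, the last from 18 counts. The lowest R1-sc library was above the highest R1-g library, and replicate 3 was the lowest in both genotypes. Means were 411 ± 254 CPM in R1-sc and 24.2 ± 20.7 CPM in R1-g (SD, n = 3 each).

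The a2 feature (Zm00001d014914), named for the synthase that makes the coloured anthocyanidin, also had 0 counts in r1-m3 aleurone. R1-sc aleurone held 357, 391 and 332 CPM in replicates 1 to 3, and R1-g aleurone 115, 85.2 and 22.9 CPM. The groups did not overlap, and the R1-sc libraries lay close together. The coefficient of variation of a2 was 8.31% in R1-sc and 63.2% in R1-g, where the medians over all features with a mean of at least 10 CPM were 86.3% in R1-sc and 82.9% in R1-g. Means were 360 ± 29.9 CPM in R1-sc and 74.4 ± 47.0 CPM in R1-g (SD, n = 3 each).

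The bz1 feature (Zm00001d045055), named for the glucosyltransferase, had 0 counts in r1-m3 aleurone. It had 102, 545 and 48 counts in R1-sc aleurone replicates 1 to 3, or 4.67, 30.4 and 2.32 CPM. In R1-g aleurone it had 131, 509 and 0 counts, or 5.97, 26.3 and 0 CPM. The genotypes overlapped, with replicate 2 the highest in both. Of 5926 features with at least 100 counts in replicates 1 and 2 of R1-g aleurone, 4.49% had 0 counts in replicate 3, as bz1 did. Across the 6 aleurone libraries of R1-sc and R1-g this share lay between 2.57% and 5.92%.

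Zm00001d034925, the candidate acyltransferase, had 0 counts in r1-m3 aleurone, which is the value it was chosen for. R1-sc aleurone held 376, 352 and 57.5 CPM in replicates 1 to 3, and R1-g aleurone 84.1, 75.1 and 24.5 CPM. Replicate 3 of R1-sc lay within the R1-g range, so the groups overlapped. Means were 262 ± 177 CPM in R1-sc and 61.2 ± 32.1 CPM in R1-g (SD, n = 3 each).

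The comparisons of r1-m3 with R1-sc and R1-g ask how far the 4 features depend on the r1 allele in the aleurone. Both comparisons use the same r1-m3 libraries. Because r1-m3 had no counts, folds are lower bounds, computed against 3 counts over replicates 1 and 2 of r1-m3 together. Against R1-sc, a1 was at least 6278-fold lower in r1-m3 aleurone, a2 at least 5501-fold, bz1 at least 190.4-fold and Zm00001d034925 at least 3999-fold. Against R1-g, a1 was at least 370.4-fold lower in r1-m3 aleurone, a2 at least 1136-fold, bz1 at least 165-fold and Zm00001d034925 at least 935-fold. The bz1 bounds rested on replicate 2 and were 53.4-fold without that of R1-sc and 45.6-fold without that of R1-g. With only replicate 2 or only replicate 1 of r1-m3 in the floor every bound was 2.13 or 1.88 times lower. In these bulk samples, fewer cells that express a gene and less of its RNA per cell cannot be told apart.

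edgeR's quasi-likelihood test, adjusted by Benjamini and Hochberg over the 18028 features tested, called a1 and a2 lower in r1-m3 than in R1-sc (adjusted p = 0.0018 and 1.06e-05) but not bz1 (0.222). These were 2 of 3 features tested, where 0.0666% of all features were called lower. Against R1-g it called a1 and a2 (adjusted p = 0.00653 and 3.13e-05) but not bz1 (0.253), again 2 of 3 where 0.0555% of all features were called lower. The 3 features passed the filter on low counts through the aleurone of R1-sc and R1-g, the high side here. They were also chosen with earlier results of these data known, so nothing is read from these shares. DESeq2 called all 3, bz1 with adjusted p = 0.0156 against R1-sc and 0.0228 against R1-g, where it called 2.63% and 2.41% of all features lower.

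The calls of a1 and a2 were not all kept when only the libraries compared were fitted. Such fits change the filter, the scaling and the shared spread at once, and which of these mattered was not tested. From the 6 libraries of r1-m3 and R1-g aleurone alone, neither was called by edgeR (adjusted p = 0.246 for a1 and 0.231 for a2), and from the 6 of r1-m3 and R1-sc a2 was called (0.0039) and a1 was not (0.0569). Of all features, the fit with R1-g called 0 of 14734 and that with R1-sc 1 of 14481. The fitted log2 fold changes against R1-g, whose size depends on the prior count since r1-m3 had no counts, were -12.15 for a1 and -13.77 for a2 in the smaller fit and -11.66 and -13.28 in the fit of all libraries. Without r1-m3 aleurone replicate 3, a2 stayed called against both genotypes (0.000159 against R1-sc, 0.000356 against R1-g), while a1 was called against R1-sc (0.0314) and not against R1-g (0.086), where 0.0262% (R1-sc) and 0.0209% (R1-g) of all features were called lower. The call of a1 against R1-g was also lost without r1-m3 replicate 1 (0.0574), r1-m3 replicate 2 (0.0514) or R1-g aleurone replicate 1 (0.0764), with fitted log2 fold changes of -11.40 to -11.64 over these 4 losses.

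Complete absence from r1-m3 aleurone was rare among features that both other genotypes held throughout. Of 5869 features with at least 10 counts in each of the 6 R1-sc and R1-g aleurone libraries, 10 (0.17%) had 0 counts in all 3 r1-m3 aleurone libraries, among them a1, a2 and Zm00001d034925. The bz1 feature was not among the 5869 because of its 0 in R1-g replicate 3. Absence of this kind was not confined to r1-m3. Of 7427 features with 10 counts in each library of the other 2 genotypes, 41 (0.552%) had 0 in R1-sc aleurone, and of 6950 such features 21 (0.302%) had 0 in R1-g aleurone. Of 3124 features with at least 100 counts in each R1-sc and R1-g aleurone library, 3 had 0 in r1-m3 aleurone, and 2 of these were a2 and Zm00001d034925. At 100 counts in each library of the other 2 genotypes, 3 of 4143 features had 0 in R1-sc aleurone and 1 of 3787 in R1-g aleurone. These shares are a description, since the rule used this absence for Zm00001d034925 and the members were chosen with earlier results of these data known. Replicate 3 of r1-m3 lowers the number of features at 0 in r1-m3 aleurone (11 of 5869 without it).

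**Figure D2:**
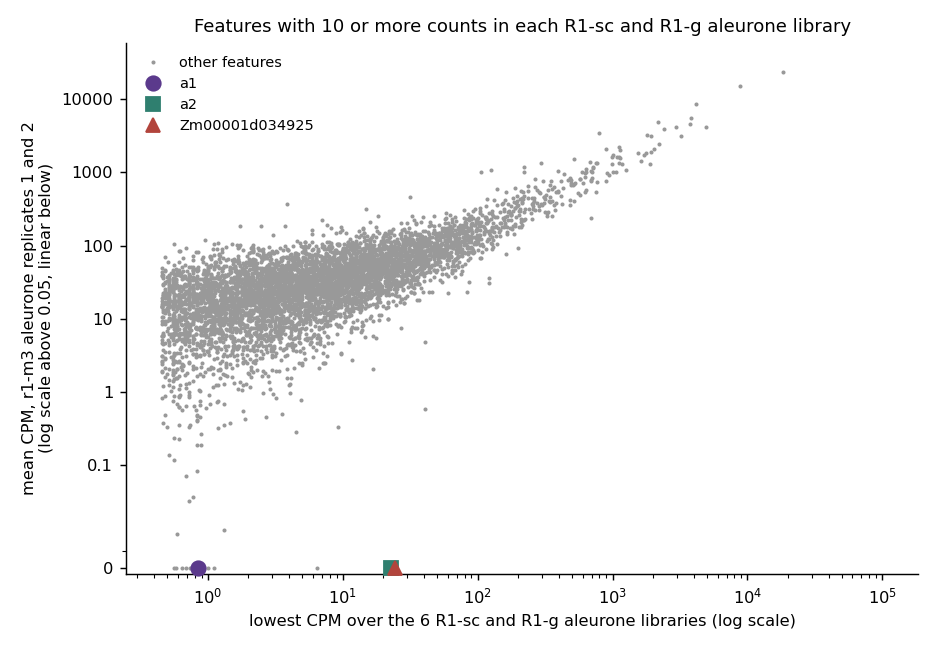
Each point is 1 of the 5869 features with at least 10 counts in every R1-sc and R1-g aleurone library. The x axis gives its lowest CPM over those 6 libraries (log scale) and the y axis its mean CPM over r1-m3 aleurone replicates 1 and 2 (log scale above 0.05, linear below). Of the 11 features at 0 on the y axis, a2 and Zm00001d034925 lie farthest to the right, at 22.9 and 24.5 CPM, and bz1 is not drawn because it had 0 counts in R1-g replicate 3.

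Between R1-sc and R1-g the question is whether 2 alleles that both go with these transcripts differ in their level. In R1-sc aleurone a1 stood 16.9-fold above R1-g by group means, a2 4.84-fold, Zm00001d034925 4.28-fold and bz1 1.16-fold. For a1 and a2 the libraries of the 2 genotypes did not overlap, which held for 2 of 4 features, where 4.5% of all features lay wholly higher in R1-sc. In edgeR's fit the log2 fold change was 4.08 for a1 (SE 1.27), 2.28 for a2 (SE 0.819), 2.10 for Zm00001d034925 (SE 0.911) and 0.21 for bz1 (SE 2.32). None was called over all features (adjusted p = 0.175, 0.209, 0.259 and 1), where 0.283% of all features were called higher in R1-sc. Of the 4, 3 had an unadjusted p under 0.05 by edgeR (a1 0.00489, a2 0.0116, Zm00001d034925 0.0323), all higher in R1-sc, as did 7.55% of all features. DESeq2 called 0 of the 4 and 4.25% of all features higher. The median log2 fold change of the 4 was 2.19, that of all features tested 0.

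The difference in a1 was called by edgeR when no filter was set on low counts (adjusted p = 0.006, with 0.905% of all features called higher). In the 18 fits that each left out 1 library, a1 stayed between 3.51 and 4.66, a2 between 1.84 and 2.73 and Zm00001d034925 between 1.71 and 2.57 on the log2 scale, none of them called. The bz1 difference changed sign in 3 of these fits and ran from -1.65 without R1-sc replicate 2 to 2.06 without R1-g replicate 2. With an SE of 2.32, the data do not show that bz1 was alike in both genotypes.

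**Figure D3:**
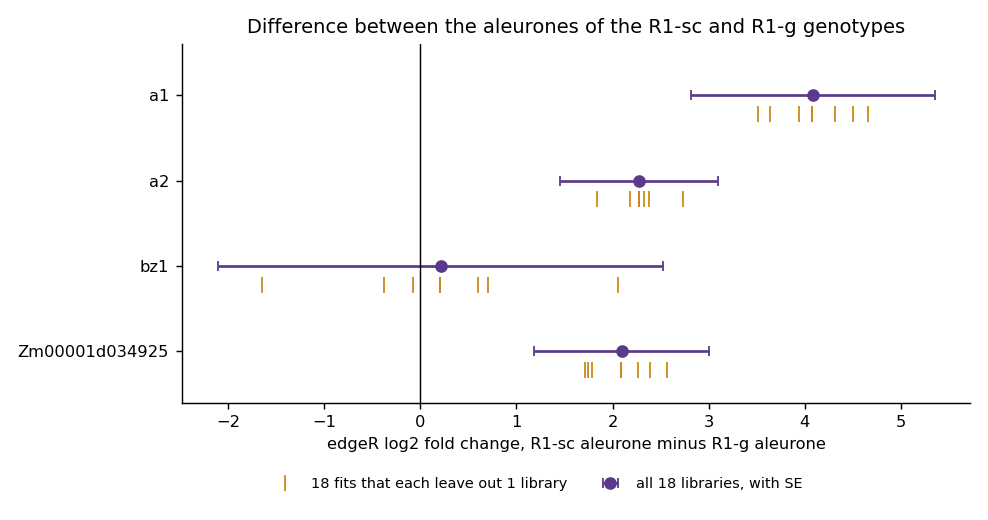
edgeR log2 fold change of R1-sc aleurone minus R1-g aleurone for the 4 features. Points with bars give the estimate and its SE from all 18 libraries, and ticks give the 18 estimates that each leave out 1 library. Those of a1, a2 and Zm00001d034925 lie above 0 throughout, while those of bz1 lie on both sides of 0.

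The 4 features did not vary together in every library. Replicate 3 of R1-sc aleurone held a2 at 153% of its mean over the 6 aleurone libraries of R1-sc and R1-g, but a1 at 60.6%, Zm00001d034925 at 35.6% and bz1 at 20.0%. Replicate 3 of R1-g aleurone was the lowest of the 6 for all 4, from 15.2% for Zm00001d034925 and 10.5% for a2 to 0.387% for a1 and 0 for bz1. In that library a1 stood at 2.66% of its lower value in replicates 1 and 2, and 12.2% of the 5926 features with at least 100 counts in both were there under 10% of their lower value. Across the 6 libraries that share lay between 8.85% and 14.3%. The bz1 feature was above its mean in replicate 2 alone, at 262% in R1-sc and 227% in R1-g.

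**Figure D4:**
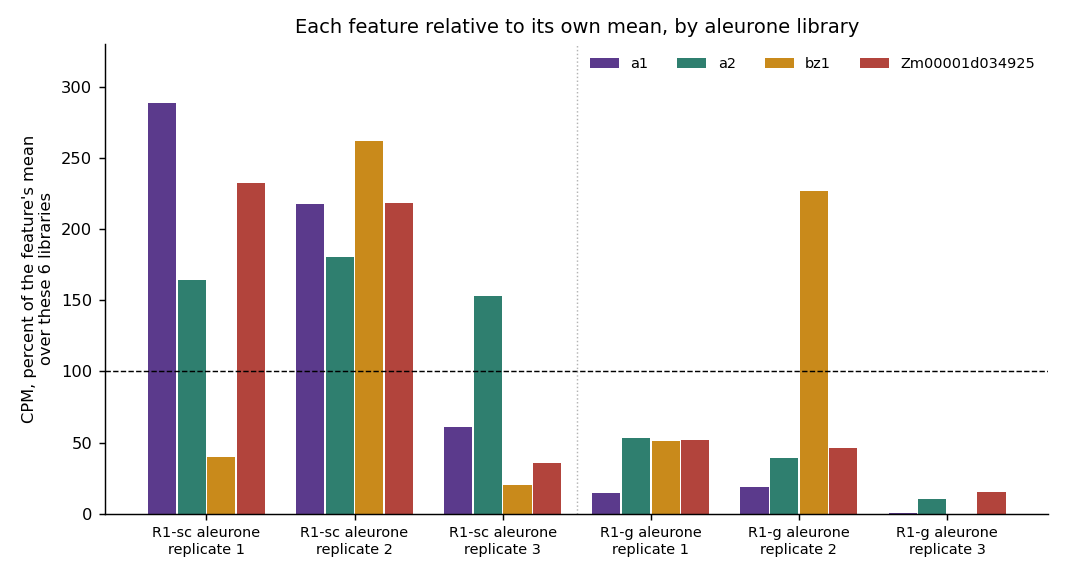
CPM of each feature in the 6 R1-sc and R1-g aleurone libraries, as a percentage of its own mean over these libraries (dashed line at 100%). In R1-sc, a2 stayed between 153% and 180% while the other 3 features spread more widely, and bz1 was high in replicate 2 of both genotypes.

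Ratios between features of the same library do not depend on its scaling. There were 1.67, 1.34 and 2.29 counts of a1 per count of Zm00001d034925 in R1-sc aleurone replicates 1 to 3, against 0.376, 0.536 and 0.0344 in R1-g aleurone. These ranges did not overlap. The ratio of a1 to a2 was 1.76, 1.21 and 0.398 in R1-sc, against 0.275, 0.473 and 0.0368 in R1-g, with overlap. The ratio of Zm00001d034925 to a2 was 1.05, 0.9 and 0.173 in R1-sc, against 0.731, 0.882 and 1.07 in R1-g. A two-sided exact permutation test of the log2 ratios gave p = 0.1, 0.2 and 0.8 for these pairs (0.3, 0.3 and 0.8 adjusted over the 3), and 3 libraries against 3 cannot go below 0.1. These tests could not pass at 0.05 whatever the values, and no ratio with bz1 was tested, so they do not settle whether the features differ in their response to the genotype.

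Setting the aleurone against the starchy endosperm shows where in the endosperm the transcripts lie. In R1-sc all 4 features had 0 counts in the 3 starchy endosperm libraries. Against 3 counts over that group, a1 was at least 3984-fold higher in the aleurone, a2 at least 3490.4-fold, bz1 at least 121-fold and Zm00001d034925 at least 2538-fold. Without R1-sc aleurone replicate 2 the bz1 bound was 33.9-fold, and without starchy endosperm replicate 1 or 3 each bound was 1.54 or 1.55 times lower. edgeR called a1, a2 and Zm00001d034925 higher (adjusted p = 0.000129, 8.93e-07 and 4.6e-06) and did not call bz1 (0.0566). These were 3 of 4 features, where 8.3% of all features were called higher in the aleurone of R1-sc. All 4 passed the filter on low counts through the aleurone of R1-sc and R1-g, the high side here, so nothing is read from this share. The bz1 difference was called by DESeq2 (adjusted p = 0.0152, with 18.5% of all features called higher), by edgeR with library totals in place of TMM factors (0.0426), without a filter on low counts (0.0368) and without R1-g aleurone replicate 3 (0.039).

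In R1-g the starchy endosperm held 11 counts of these features, all in replicate 2: 8 of a1, 2 of a2 and 1 of Zm00001d034925. Without that library all 4 features had 0 counts in the starchy endosperm of the series. The aleurone mean was set against the pooled starchy endosperm CPM, which is the summed count of the group over its summed scaled totals. The aleurone mean of a1 was 102 times this value (95% Poisson interval on the starchy endosperm count 51.7 to 236). That of a2 was 1250.3 times (346 to 10324) and that of Zm00001d034925 2059 times (369.6 to 81342). These intervals cover counting error only and treat reads of amplified RNA from 1 library as independent molecules, so they are too narrow as a measure of the spread between libraries. The bz1 feature, with 0 counts in the starchy endosperm, was at least 121-fold higher in the aleurone. That bound was 33.5-fold without aleurone replicate 2 and 80.1-fold or 77.4-fold without starchy endosperm replicate 1 or 2. edgeR called a1, a2 and Zm00001d034925 higher in the aleurone of R1-g (adjusted p = 0.00717, 1.02e-05 and 3.41e-05) but not bz1 (0.0691), which is 3 of 4 where 4.88% of all features were called higher. DESeq2 called all 4 (bz1 adjusted p = 0.0168, with 14.0% of all features called higher). Nothing is read from these shares either, since all 4 passed the filter through the aleurone of R1-sc and R1-g. From the 6 R1-g libraries alone edgeR did not call a1 (0.0986), where 769 of 13052 features were called higher. edgeR also called bz1 with library totals in place of TMM factors (0.0494) and without a filter (0.0445).

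The starchy endosperm counts in R1-g replicate 2 came with counts of other aleurone features. Leaving the 4 aside, 117 features had a mean of at least 50 CPM in R1-sc aleurone and 0 counts in all starchy endosperm libraries of r1-m3 and R1-sc. Of these, 16, 35 and 5 had counts in R1-g starchy endosperm replicates 1, 2 and 3, and their summed CPM was 0.245%, 0.209% and 0.0454% of that in R1-g aleurone. In replicate 2 a1 stood at 2.74% of its R1-g aleurone mean, a2 at 0.223% and Zm00001d034925 at 0.135%. The part of aleurone RNA in these counts was not tested.

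In r1-m3 neither compartment held a count of any of the 4, so no fold can be given and no difference could be called. Accordingly edgeR called 0 of 3 features tested (0 at an unadjusted p under 0.05, and 0 by DESeq2), from which nothing is read. Of all features, edgeR called 5.7% higher in the aleurone, or 3.03% without aleurone replicate 3, 19.8% were higher at an unadjusted p under 0.05, and DESeq2 called 15.8% higher. With library totals in place of TMM factors the median log2 difference of all features between aleurone and starchy endosperm moved to 1.70 in r1-m3, 1.43 in R1-sc and 1.31 in R1-g, against 0.62, 0.59 and 0.38 with them. In R1-g the log2 differences of a1, a2 and Zm00001d034925 were 6.69 (SE 1.48), 10.15 (SE 1.22) and 10.70 (SE 1.42), all larger than this shift.

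Between genotypes in the starchy endosperm, edgeR called 0 of 4 features in each of the 3 comparisons, and so did DESeq2. For r1-m3 against R1-sc all 4 had 0 counts on both sides, as bz1 had in all 3 comparisons, so no difference could be called there. At an unadjusted p under 0.05 the count was 1 of 4 (a1) for r1-m3 against R1-g and for R1-sc against R1-g, and 0 for r1-m3 against R1-sc. Of all features, edgeR called 0.0222%, 0.0555% and 0.0333% in these, 7.28%, 7.15% and 8.64% had an unadjusted p under 0.05, and DESeq2 called 3.41%, 3.41% and 4.65%. The counts behind the a1 values (unadjusted p = 0.0357 and 0.0483) are the 8 of R1-g replicate 2. Whether the compartment difference depends on the genotype could not be estimated for r1-m3, which had no counts to set in ratio. edgeR called 0 of 3 features against R1-g and 0 of 3 against R1-sc (0 at an unadjusted p under 0.05 in both, and 1 and 2 by DESeq2), and 0 of 4 between R1-sc and R1-g (2 at an unadjusted p under 0.05, a1 and a2, and 0 by DESeq2). Between R1-sc and R1-g, bz1 could not be estimated either, with 0 counts in the starchy endosperm of both (SE 590). For a1 and a2 this comparison sets 0 counts in R1-sc starchy endosperm against the 8 and 2 counts of R1-g replicate 2. In these interactions edgeR called 0.133%, 0.00555% and 0.139% of all features, 10.8%, 11.8% and 12.0% had an unadjusted p under 0.05, and DESeq2 called 5.24%, 6.68% and 6.83%. Without a filter on low counts edgeR called 1 of 4 (a1) between R1-sc and R1-g, and 0.738% of all features higher. The a1 call uses the same 8 counts.

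In order of level, a1, a2 and Zm00001d034925 stood highest in R1-sc aleurone and next in R1-g aleurone, a step that did not pass the test for any of them. R1-g starchy endosperm held 1 to 8 counts, all in replicate 2, and R1-sc starchy endosperm and both r1-m3 compartments were at 0 counts. In R1-g starchy endosperm the means of a2 and Zm00001d034925 were 0.0553 and 0.0276 CPM. Those 0-count groups can hold up to 0.0655 to 0.103 CPM, so for a2 and Zm00001d034925 they are not ordered against R1-g starchy endosperm. For bz1 the 2 upper groups overlapped and the other 4 were at 0 counts.

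The features with the most similar pattern were sought among 12243 features with a mean of at least 10 CPM in some group, by Pearson correlation of log2 CPM over 17 libraries (r1-m3 aleurone replicate 3 left out). Zm00001d052673 came first for a2 (r = 0.98), for Zm00001d034925 (r = 0.98) and for the mean of the 4 (r = 0.969). It held 345 CPM in R1-sc aleurone and 98.7 CPM in R1-g aleurone by mean, and unlike the 4 it had 41 counts in r1-m3 aleurone, 28 in replicate 1, 0 in replicate 2 and 13 in replicate 3. Zm00001d017077 was next for a2 (0.949), Zm00001d034925 (0.941) and the mean of the 4 (0.937), with 0 counts in every r1-m3 library and means of 81.4 CPM in R1-sc aleurone and 6.40 CPM in R1-g aleurone. Zm00001d041690 was first for a1 (r = 0.961) and for bz1 (r = 0.93), also with 0 counts in r1-m3 aleurone. Zm00001d001960, Zm00001d033383, Zm00001d024701 and Zm00001d013830 completed the lists, at 0.892 to 0.956.

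Among themselves the 4 features correlated at 0.888 to 0.993 over the same 17 libraries. These points share a block of libraries at 0. Over the 6 aleurone libraries of R1-sc and R1-g alone, a1 and a2 stood at 0.969 (0.966 over the 17), a1 and Zm00001d034925 at 0.892 (0.959), a2 and Zm00001d034925 at 0.799 (0.993) and a2 and bz1 at 0.633 (0.888). From the aleurone libraries alone, 5 of the 17 places in the lists of similar features were filled by the same features. No source used here names these IDs.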

How the data were processed

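Laser-captured endosperm RNA was measured in 18 libraries (6 groups of 3, by genotype and compartment in the labels). The deposited values are read counts per feature, 1 table per library, as whole numbers without normalization. The build was B73 RefGen_v4 and counting was by HTSeq 0.11.2, per the submitters' processing notes, which also list HISAT2, SAMtools, Trimmomatic 0.39, FastQC and DESeq2. Settings and strand are not given in the sources used here, so reads of a feature and of its overlapping or antisense neighbour may be mixed. The closing totals of each table (5, for reads without a feature) took 66.9% to 75.0% of it, those aligned to several places 42.2% to 55.0%, so near-identical copies are uncertain.

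The test was that of edgeR 4.0.16 (R 4.3.3, limma 3.58.1). filterByExpr kept 18028 features including all 4 described, which passed through the aleurone of R1-sc and R1-g; TMM factors; robust quasi-likelihood F tests on 6 group means over all 18 libraries; Benjamini-Hochberg adjustment within each of 12 contrasts, called under 0.05. CPM uses TMM-scaled totals. SE is the log2 fold change over the square root of F. Scripts were tested on simulated counts. Alternatives were DESeq2 1.42.0, its size factors, library totals, no filter, only the libraries compared, a replicate block, and leaving out each library. Labels call replicates biological without naming plants or kernels, so p-values measure the spread between libraries. The members, gene lists and tests were chosen with earlier results of these data known. Similar features were the 3 most correlated with each member and the 5 with their mean (prior count 2). The reference table matched 518 IDs, 0 of them Zm00001d IDs, so planned lists of other pathway genes, compartment markers and promoter motifs gave no value.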

Additional observations from a re-analysis of the deposited data

How the results depend on the processing

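Of the 4 features, those called were recounted under each alternative. For r1-m3 against R1-g in the aleurone the count was 0 of 2 tested with only the libraries compared, since bz1 did not pass the filter there. That fit called 0 of 14734 features. The count was 2 of 3 in the fit of all libraries, and 1 to 2 when single libraries were left out. For r1-m3 against R1-sc it was 1 of 3 with only the libraries compared, where 1 of 14481 features was called, and 2 with any library left out. For R1-sc against R1-g, and for the interaction of R1-sc and R1-g with compartment, it became 1 without a filter on low counts, against 0, where 0.905% and 0.738% of all features were called higher. DESeq2 called 1 and 2 features in the interactions of r1-m3 with R1-g and with R1-sc, and 5.24% and 6.68% of all features. Leaving out r1-m3 aleurone replicate 3 also moved contrasts that do not use it. By edgeR a1 then had adjusted p = 0.261 between R1-sc and R1-g aleurone (0.175 with it). Between compartments, a1 in R1-g had 0.0132 (0.00717 with it) and bz1 in R1-sc 0.0743 (0.0566 with it). Adjusted p of a2 and Zm00001d034925 between compartments became smaller in R1-sc and in R1-g. The bz1 difference between R1-sc and R1-g aleurone turned to -1.65, -0.38 and -0.08 without R1-sc replicate 2, R1-g replicate 3 and R1-g replicate 1, from 0.21, and reached 2.06. The smaller fits differ both in the number of libraries and in the features tested, and the cause of these changes was not tested.

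Samples of the same number did not deviate together (median correlation 0.000866 over 45 pairs, and 6 of 18 libraries were closest to their own number), so the numbers are not used as pairs. With the replicate block edgeR called 2 of the 3 features tested in r1-m3 against R1-g and against R1-sc, 0 between R1-sc and R1-g in the aleurone (a1 adjusted p = 0.0555), and 3 in aleurone against starchy endosperm of R1-sc and of R1-g, as without it. Of all 18028 features, the block fit called 8 lower in r1-m3 than in R1-g aleurone and 10 lower than in R1-sc. It called 32 higher in R1-sc than in R1-g aleurone, and 1107 and 675 higher in the aleurone of R1-sc and of R1-g.

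Counts over all features depended far more on the tool. For r1-m3 against R1-g aleurone, 56 were called, and 0 to 1105 under the alternatives; for r1-m3 against R1-sc 32 (1 to 1285); for R1-sc against R1-g 76 (5 to 1626). In the starchy endosperm these were 4 (2 to 615), 6 (1 to 838) and 10 (2 to 614). Between compartments they were 1788 (880 to 4465) in r1-m3, 2579 (1423 to 5376) in R1-sc and 1784 (1021 to 4304) in R1-g, and in the interactions 24 (10 to 945), 1 (1 to 1204) and 25 (16 to 1231). The highest count was that of DESeq2 in each. With all 3 r1-m3 aleurone libraries in the floor, an alternative chosen after seeing the data, the bound of a1 against R1-sc was 10783-fold and that of a2 9449-fold. Bounds without single libraries were also chosen after seeing the data. With library totals in place of TMM factors, 2010 features were called higher and 434 lower in the aleurone of r1-m3 (1027 and 761 with them), 2337 and 725 in that of R1-sc (1496 and 1083) and 1584 and 594 in that of R1-g (880 and 904), and the median log2 fold change of all features between r1-m3 and R1-sc aleurone was 0.20.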

Other observations

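The other 7 features with at least 10 counts in each R1-sc and R1-g aleurone library and 0 in all r1-m3 aleurone libraries were singled out after their values were seen. Zm00001d017077 (15 to 2021 counts), Zm00001d001960 (14 to 2008) and Zm00001d020140 (16 to 3158) also had 0 counts in all 9 starchy endosperm libraries. Zm00001d026303 (134 to 2091 counts in the aleurone), Zm00001d023840 (12 to 588), Zm00001d009383 (20 to 260) and Zm00001d016478 (12 to 65) had 609, 365, 199 and 35 counts summed over the starchy endosperm libraries. Zm00001d017077 and Zm00001d001960 are also among the features most similar to a2.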
